A study of Homo sapiens with 12 samples.

Results

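Fatty acid oxidation and lipid droplet genes were described in HepG2, a human cell line established from a tumour of the liver, in 4 culture media. The set held 8 genes taken by symbol from the table of counts: FABP1, CPT1A, ACADS, HADH, ACAA2, ACAA1, PPARA and PLIN2. All 8 had an entry among the 10940 genes of the table, and all 8 were among the 10459 genes that passed the filter on low counts and were tested.

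Wild-type HepG2 cells were grown for 96 h in Plasmax-TE+Fe (Plasmax, a medium modelled on human plasma, made without trace elements but with iron supplied), in Plasmax-TE (Plasmax without trace elements), in complete Plasmax, or in EMEM, the medium of routine culture. Every medium held 10% heat-inactivated fetal bovine serum, the switch came 24 h after seeding in EMEM, and medium was renewed after 48 h. Each medium gave 3 libraries, 12 in all, of QuantSeq, which reads the 3′ end of messenger RNA. All libraries come from a single tumour line. The labels do not tell whether the libraries of a medium were grown apart, and the p-values therefore reflect library-to-library spread, part of which may be technical.

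Hepatocytes take up fatty acids, bind them to FABP1 in the cytosol and either store them as triglyceride in lipid droplets, which PLIN2 coats, or oxidise them. CPT1A, in the outer mitochondrial membrane, controls the entry of long-chain acyl groups. Inside, each round of beta-oxidation runs through an acyl-CoA dehydrogenase, a hydratase, a hydroxyacyl-CoA dehydrogenase and a thiolase, and peroxisomes run a parallel pathway with ACAA1 as thiolase. PPARA, a nuclear receptor activated by fatty acids, switches on many of these genes in liver together with its partner RXRA.

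The sequences just upstream of FABP1 and PLIN2 are shown because these genes gave different orders of the 4 media, described below. Both are from RefSeq (GRCh38.p14) and cover the 250 bases before the annotated start, 5′ to 3′ on the gene's own strand. FABP1 lies on the minus strand (chr2:88128063-88128312) and PLIN2 on the minus strand (chr9:19127493-19127742). Capitals mark matches, on either strand, to AGGTCA (the hexamer of nuclear receptors) and CACGTG (the E-box of basic helix-loop-helix factors).
FABP1: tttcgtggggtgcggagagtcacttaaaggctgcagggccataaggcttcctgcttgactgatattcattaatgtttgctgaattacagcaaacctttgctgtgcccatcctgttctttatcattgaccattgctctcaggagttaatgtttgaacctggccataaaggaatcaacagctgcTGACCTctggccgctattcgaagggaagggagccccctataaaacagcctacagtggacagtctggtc
PLIN2: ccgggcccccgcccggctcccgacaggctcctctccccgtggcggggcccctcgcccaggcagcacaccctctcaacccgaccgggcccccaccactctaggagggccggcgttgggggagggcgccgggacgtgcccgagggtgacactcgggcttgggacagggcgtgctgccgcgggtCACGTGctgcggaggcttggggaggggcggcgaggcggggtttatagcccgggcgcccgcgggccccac

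RefSeq promoters were at hand for 7 of the 8 genes. Of these 7, only FABP1 held AGGTCA, which 12.1% of 35116 human promoter windows of this length hold. Only PLIN2 held CACGTG (6.34% of windows). None of the 7 held an exact direct repeat (AGGTCA, any 1 base, AGGTCA), which 0.0171% of windows hold. The marked letters lie between positions -68 and -63 (AGGTCA, on the other strand) before the FABP1 start, and between -69 and -64 (CACGTG, which reads the same on both strands) before the PLIN2 start. These matches describe the letters of the windows and were not measured as binding sites.

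Depth ran from 1562125 to 2384090 counts per library, so that 1 count was worth 0.419 to 0.640 CPM, the count scaled to the library's total. The genes of the set had between 27 and 2096 counts in every library. Replicate 1 of Plasmax-TE (-35.5) and replicate 2 of Plasmax-TE+Fe (-32.0) were set apart on principal component 2 from the other 10 libraries (-8.11 to 19.6). ACADS, PPARA and ACAA1 were highest, and FABP1, CPT1A and PLIN2 lowest, in these libraries among the 3 of their medium. All 10 hepatocyte markers, ALB, APOA1, TTR and SERPINA1 among them, had an entry. The sum of these markers was 23115 to 26156 CPM in Plasmax-TE+Fe, 27998 to 32136 CPM in Plasmax-TE, 17712 to 19855 CPM in Plasmax and 43744 to 46623 CPM in EMEM. Of the fetal hepatocyte markers 3 of 4 had an entry (H19 had none), with a sum of 4435 to 6403 CPM in Plasmax-TE+Fe, 5414 to 7775 CPM in Plasmax-TE, 3611 to 5283 CPM in Plasmax and 9041 to 10086 CPM in EMEM. Of the biliary markers 3 of 4 had an entry (KRT7 had none), with a sum of 466 to 715 CPM in Plasmax-TE+Fe, 467 to 507 CPM in Plasmax-TE, 997 to 1276 CPM in Plasmax and 434 to 518 CPM in EMEM. Both hepatocyte sums were thus lowest and the biliary sum highest in Plasmax, where most of the genes below were low, and their part in the changes of these genes was not tested. The adipocyte markers ADIPOQ, LEP, PLIN1 and FABP4 and the endothelial markers PECAM1, VWF, CDH5 and KDR had no entry. PTPRC of the leukocytes and COL1A2, COL3A1, DCN and LUM of fibroblasts had none either, although 3 of 5 leukocyte markers (793 to 2502 CPM in sum) and 3 of 7 fibroblast and stellate markers (33.5 to 82.0 CPM in sum) did. In these bulk samples fewer cells that make a transcript and less of it per cell cannot be told apart.

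**Figure D1:**
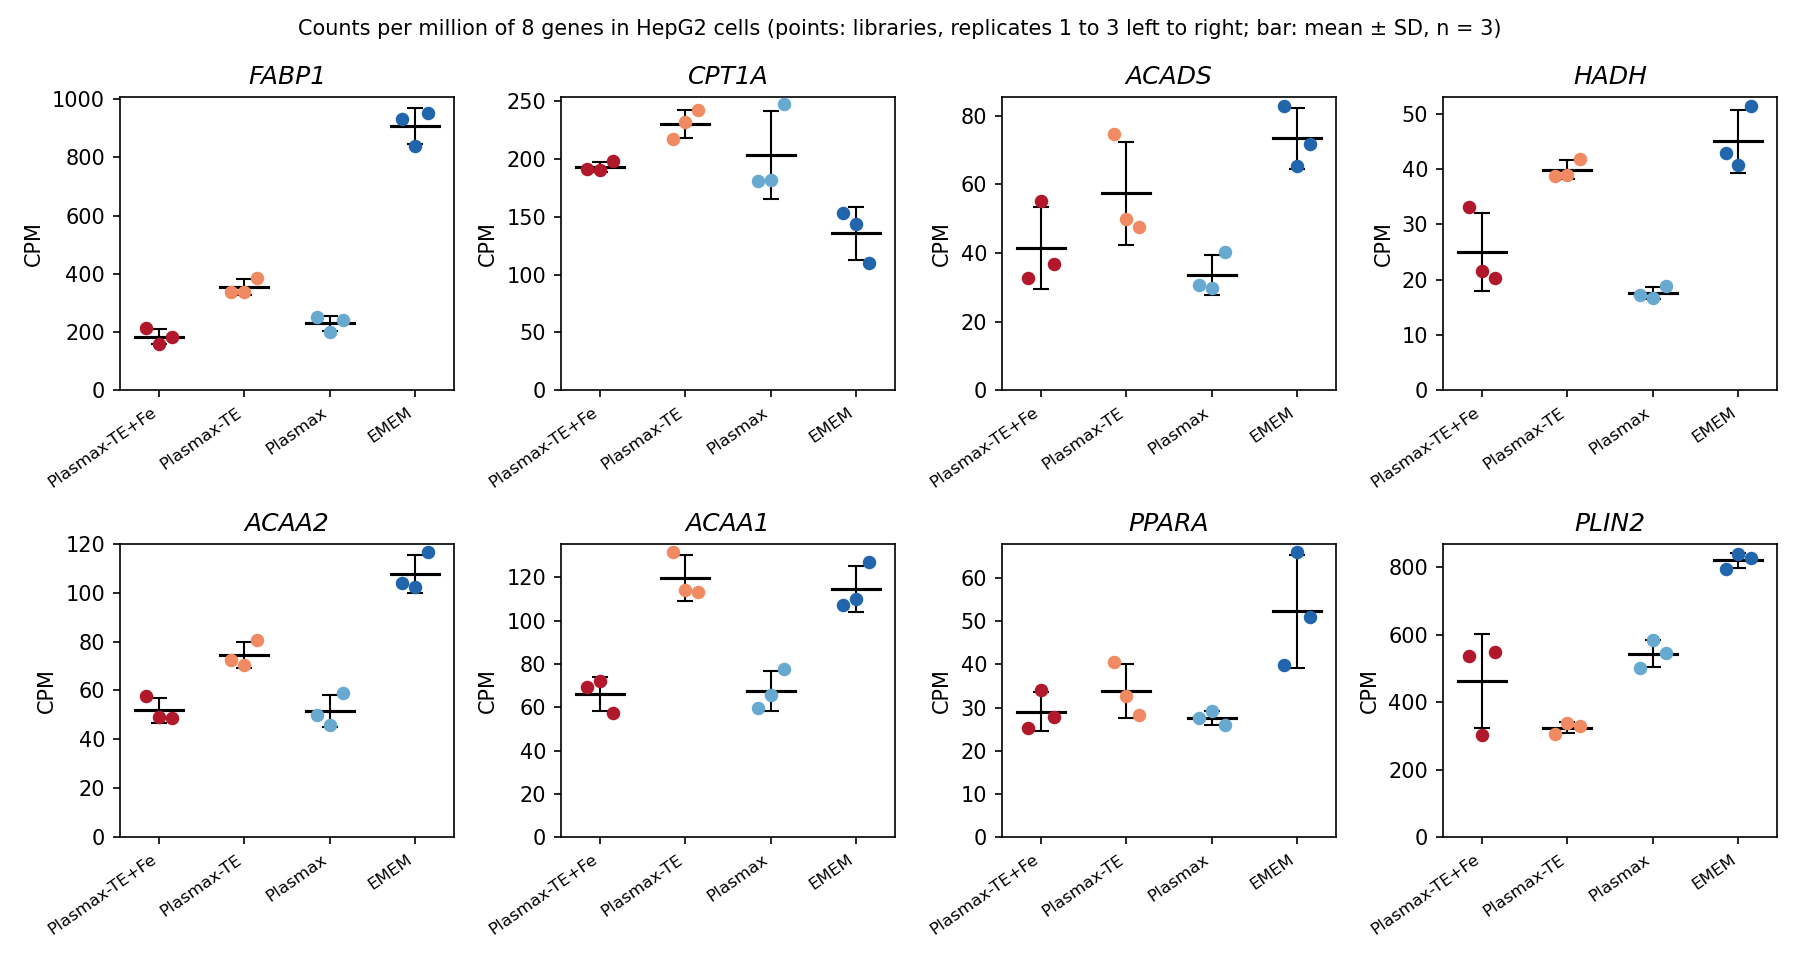
CPM (linear axes from 0) of the 8 genes in each library, by medium; points are libraries and bars are mean ± SD of 3. FABP1 stands highest in the 3 EMEM libraries (838 to 954 CPM), CPT1A is lowest there, and PLIN2 in Plasmax-TE+Fe has 1 library at 302 CPM beside 2 at 536 and 549.8 CPM.

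FABP1 (ENSG00000163586), the abundant fatty acid binding protein of liver cytosol, had the widest range of the set. It stood at 213, 158 and 182 CPM in replicates 1 to 3 of Plasmax-TE+Fe and at 338, 339 and 386 CPM in Plasmax-TE. In Plasmax it was 250.3, 202 and 239.7 CPM, and in EMEM 930.2, 838 and 954 CPM. The 3 EMEM libraries lay above all others, Plasmax-TE lay above the remaining media in every library, and Plasmax-TE+Fe and Plasmax overlapped. Among all tested genes FABP1 ranked 11 by the p of the test of the 4 media together (adjusted p = 4.2e-09; edgeR's quasi-likelihood test, Benjamini-Hochberg adjusted over all tested genes, is meant by each adjusted p).

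CPT1A (ENSG00000110090), the carnitine palmitoyltransferase that gates mitochondrial entry, ran the other way. It had 191, 190.4 and 198 CPM in Plasmax-TE+Fe and 217, 232 and 242 CPM in Plasmax-TE. Plasmax gave 181, 181 and 247 CPM, and EMEM 153, 144 and 109.6 CPM. All 9 libraries of the Plasmax media lay above all 3 of EMEM, and within the Plasmax media complete Plasmax overlapped both others.

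ACADS (ENSG00000122971), the dehydrogenase that opens the oxidation of short-chain acyl-CoA, had 32.8, 55.2 and 36.8 CPM in Plasmax-TE+Fe and 74.8, 49.8 and 47.6 CPM in Plasmax-TE. It had 30.7, 29.8 and 40.4 CPM in Plasmax and 82.9, 65.4 and 71.9 CPM in EMEM. The highest value of Plasmax-TE and that of Plasmax-TE+Fe each came from the library set apart on component 2.

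HADH (ENSG00000138796), the 3-hydroxyacyl-CoA dehydrogenase of medium and short chains, had 33.2, 21.6 and 20.4 CPM in Plasmax-TE+Fe and 38.8, 39.0 and 41.9 CPM in Plasmax-TE. Plasmax gave 17.3, 16.7 and 18.9 CPM, the lowest of the 4 media in every library, and EMEM 43.0, 40.7 and 51.4 CPM. Plasmax-TE overlapped EMEM.

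ACAA2 (ENSG00000167315), the mitochondrial thiolase that ends each round, had 57.6, 49.2 and 48.7 CPM in Plasmax-TE+Fe and 72.5, 70.5 and 80.6 CPM in Plasmax-TE. It had 49.9, 46.0 and 58.8 CPM in Plasmax and 104, 102 and 116 CPM in EMEM. Its libraries fell into 3 levels without overlap: EMEM, then Plasmax-TE, then the other 2 media together.

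ACAA1 (ENSG00000060971), the peroxisomal thiolase, fell into 2 levels instead. It had 69.4, 71.9 and 57.1 CPM in Plasmax-TE+Fe and 132, 114 and 113 CPM in Plasmax-TE. Plasmax gave 59.5, 65.8 and 77.7 CPM, and EMEM 107, 109.9 and 127 CPM. Plasmax-TE overlapped EMEM, and Plasmax-TE+Fe overlapped Plasmax.

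PPARA (ENSG00000186951), the receptor itself, had 25.2, 34.1 and 27.8 CPM in Plasmax-TE+Fe and 40.5, 32.8 and 28.3 CPM in Plasmax-TE. It had 27.5, 29.3 and 26.0 CPM in Plasmax and 39.9, 65.9 and 51.0 CPM in EMEM. The 3 Plasmax media overlapped one another, and EMEM was the most variable medium (SD 13.0 CPM around a mean of 52.2 CPM).

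PLIN2 (ENSG00000147872), the lipid droplet coat protein, had 536, 302 and 549.8 CPM in Plasmax-TE+Fe and 306, 339.7 and 329 CPM in Plasmax-TE. It had 503, 584 and 545 CPM in Plasmax and 795, 838 and 828 CPM in EMEM. Plasmax-TE was therefore the lowest medium for PLIN2, whereas it was at or near the top for the oxidation enzymes. Replicate 2 of Plasmax-TE+Fe, 1 of the 2 libraries set apart, lay below every Plasmax-TE library, and the other 2 lay within the range of Plasmax.

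All 8 genes differed among the 4 media, with adjusted p between 4.2e-09 (FABP1) and 0.025 (CPT1A), against 18% of all tested genes. The 8 genes and the lists below were chosen with earlier results of these data known. Shares of all tested genes set beside their counts, here and below, are therefore a description and no test of the set. Sorted by mean level, FABP1, ACAA2, HADH, ACADS and PPARA had EMEM first and Plasmax-TE second. ACAA1 had Plasmax-TE (120 ± 10.6 CPM) and EMEM (115 ± 10.7 CPM; SD, n = 3 each) side by side (adjusted p = 0.98). CPT1A had Plasmax-TE first, then Plasmax, Plasmax-TE+Fe and EMEM. Its 3 Plasmax media followed one another with overlap, and the last step, Plasmax-TE+Fe against EMEM, had no overlap but missed the threshold (adjusted p = 0.093). PLIN2 had EMEM first, then Plasmax, Plasmax-TE+Fe and Plasmax-TE, and only the step between Plasmax and EMEM passed the test. For HADH and ACADS no neighbouring step passed.

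Plasmax against EMEM asks how a plasma-like medium changes cells adapted to the maintenance medium. Fatty acid binding, oxidation, receptor and droplet transcripts fell in Plasmax while CPT1A rose: 7 of 8 genes fell and 1 rose, and none overlapped between the media. Of all tested genes 21.4% differed by the same test (9.9% higher and 11.5% lower), and 39.8% did not overlap (21.6% higher and 18.2% lower). FABP1 averaged 231 ± 25.6 CPM in Plasmax and 907 ± 61.3 CPM in EMEM (SD, n = 3 each), a difference of -2.03 ± 0.16 (SE) on the log2 scale or 4.07-fold lower (adjusted p = 5.3e-08). HADH followed with -1.40 ± 0.22 (adjusted p = 0.00013). ACADS (-1.16 ± 0.21, adjusted p = 0.00058), ACAA2 (-1.10 ± 0.17, adjusted p = 7.8e-05) and PPARA (-0.98 ± 0.20, adjusted p = 0.0013) fell less, by amounts similar to one another. ACAA1, the peroxisomal enzyme, fell by 0.80 ± 0.16 on the log2 scale (adjusted p = 0.0012), and PLIN2 by 0.65 ± 0.18 (adjusted p = 0.017). CPT1A rose by 0.54 ± 0.17 (adjusted p = 0.028), with 203 ± 38.1 CPM in Plasmax and 136 ± 23.0 CPM in EMEM. The median of the 8 was -1.04, beside -0.01 over all tested genes.

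Library names carry numbers that form 3 runs (85 to 88, 89 to 92, 93 to 96) with 1 library of each medium apiece. Within these runs the log2 ratio of Plasmax to EMEM ran from -2.05 to -1.89 for FABP1, from -1.15 to -0.99 for ACAA2 and from 0.24 to 1.17 for CPT1A. CPT1A lost the call without Plasmax replicate 3 (0.34, adjusted p = 0.16), EMEM replicate 3 (0.41, adjusted p = 0.15) or EMEM replicate 2 (0.58, adjusted p = 0.055), and PLIN2 without EMEM replicate 3, Plasmax replicate 1 or Plasmax replicate 2 (adjusted p = 0.053 to 0.067).

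**Figure D2:**
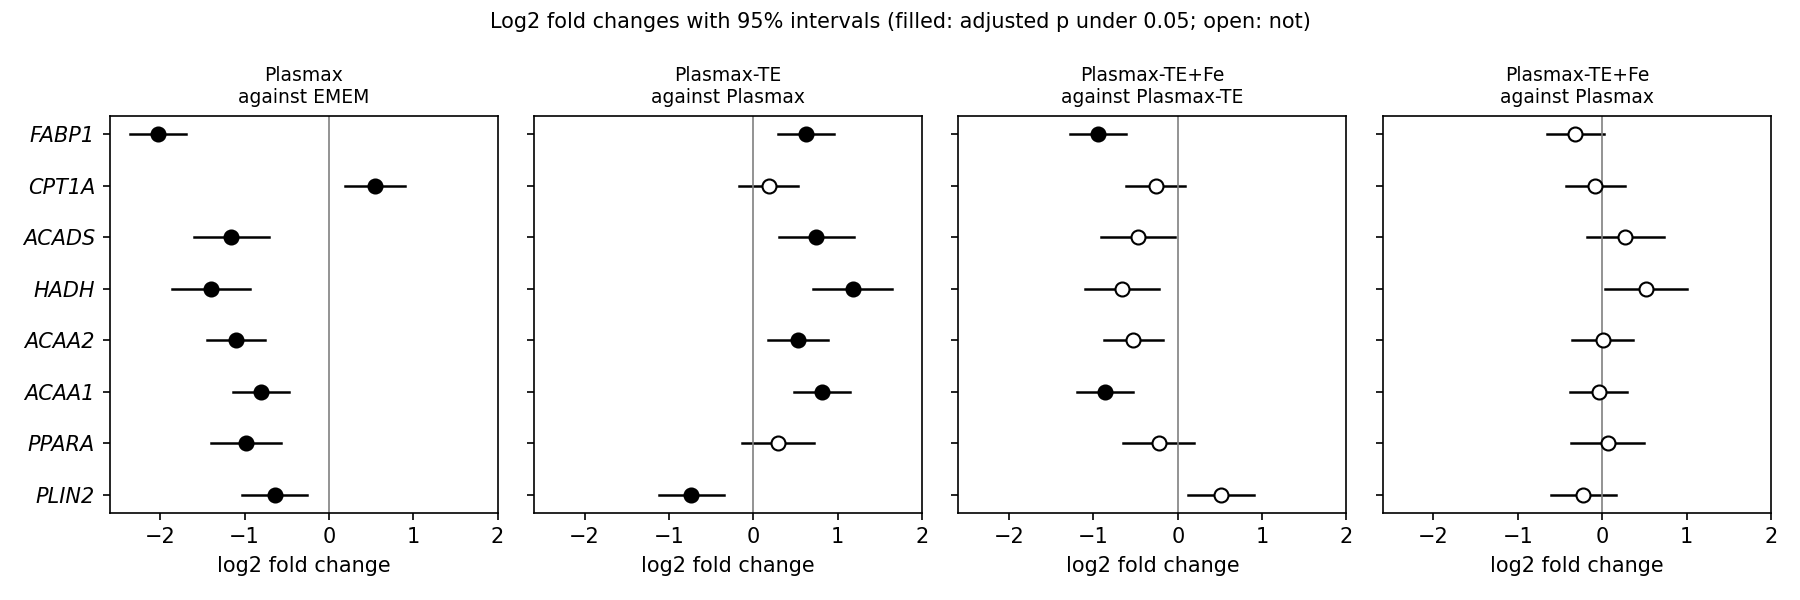
Log2 fold changes of the 8 genes in the 4 main comparisons, with 95% intervals; filled points passed the test at an adjusted p under 0.05 and open points did not. All 8 points are filled for Plasmax against EMEM, 6 for Plasmax-TE against Plasmax, 2 for Plasmax-TE+Fe against Plasmax-TE and 0 for Plasmax-TE+Fe against Plasmax.

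Plasmax-TE against Plasmax asks what the absence of trace elements changes. FABP1 and the enzymes HADH, ACAA1, ACADS and ACAA2 rose, PLIN2 fell, and PPARA and CPT1A did not pass. The 5 higher and 1 lower of 8 stand beside 5.61% higher and 5.63% lower among all tested genes (11.2% in all). The same 6 genes did not overlap between the media, beside 30.4% of all tested genes (15% higher and 15.4% lower). HADH averaged 39.9 ± 1.70 CPM in Plasmax-TE and 17.6 ± 1.11 CPM in Plasmax, and rose by 1.18 ± 0.22 on the log2 scale (adjusted p = 0.0021), with ratios from 1.15 to 1.22 in the 3 runs of library numbers. ACAA1 rose by 0.81 ± 0.16 (adjusted p = 0.0027), ACADS by 0.75 ± 0.22 (adjusted p = 0.03), FABP1 by 0.63 ± 0.16 (adjusted p = 0.015) and ACAA2 by 0.53 ± 0.17 (adjusted p = 0.048). PLIN2 averaged 325 ± 17.2 CPM in Plasmax-TE and 544 ± 40.7 CPM in Plasmax, and fell by 0.73 ± 0.19 on the log2 scale (adjusted p = 0.015) with ratios between -0.78 and -0.72 in the 3 runs. The log2 fold change was 0.29 for PPARA (95% interval -0.14 to 0.72) and 0.18 for CPT1A (95% interval -0.17 to 0.53). The median of the 8 was 0.58, beside 0.02 over all tested genes. This comparison shares the Plasmax libraries with the one before, so a library high or low in Plasmax moves both in opposite senses.

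The count fell to 2 of 8 without Plasmax replicate 2 and to 3 of 8 without Plasmax-TE replicate 1, and HADH and ACAA1 passed under all alternatives. ACAA2 was the least stable, with adjusted p from 0.011 to 0.23 over the alternatives, and ACADS did not pass with the 2 libraries set apart left out (0.56, adjusted p = 0.068).

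Plasmax-TE+Fe against Plasmax-TE asks what supplying iron changes when the other trace elements stay left out. It shares the Plasmax-TE libraries with Plasmax-TE against Plasmax, so a library high or low in Plasmax-TE moves both in opposite senses. The binding protein FABP1 and the peroxisomal thiolase ACAA1 fell when iron was supplied. These are 2 of the 27 genes of the whole table that passed (0.258% of all tested genes, with 0.0861% higher and 0.172% lower). FABP1 averaged 184 ± 27.2 CPM in Plasmax-TE+Fe and 354 ± 27.1 CPM in Plasmax-TE, a log2 fold change of -0.94 ± 0.16 or 1.92-fold lower (adjusted p = 0.024). ACAA1 averaged 66.1 ± 7.91 CPM in Plasmax-TE+Fe and 120 ± 10.6 CPM in Plasmax-TE, a log2 fold change of -0.86 ± 0.16 or 1.81-fold lower (adjusted p = 0.027). The log2 ratio within the runs of library numbers was -0.86 or lower for FABP1 and -0.70 or lower for ACAA1.

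The other enzymes had values on the same side without passing. The log2 fold change was -0.66 ± 0.21 for HADH (adjusted p = 0.26), -0.52 ± 0.17 for ACAA2 (adjusted p = 0.25) and -0.47 ± 0.21 for ACADS (adjusted p = 0.49). ACAA2 was lower within each run by a similar amount (-0.56, -0.53 and -0.48), and FABP1, ACAA1, ACAA2, HADH and CPT1A, 5 of the 8 genes, were lower without overlap. Of all tested genes 13.4% did not overlap (6.91% higher and 6.52% lower). PPARA (-0.23 ± 0.20) and CPT1A (-0.26 ± 0.17) did not pass either. PLIN2 had a log2 fold change of 0.51 ± 0.19 (adjusted p = 0.35). Its ratio was -0.02 in the run that holds both libraries set apart, and 0.69 and 0.70 in the other 2 runs. Without Plasmax-TE+Fe replicate 2 PLIN2 rose by 0.76 (adjusted p = 0.009), and by 0.69 (adjusted p = 0.015) with both libraries set apart left out.

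FABP1 and ACAA1 lost the call without replicate 2 or 3 of Plasmax-TE or replicate 1 or 3 of Plasmax-TE+Fe (adjusted p between 0.064 and 0.23), and with only the 6 libraries compared in the fit (0.14 for both). In each of these 5 fits 0 genes of the table passed. Without Plasmax-TE+Fe replicate 2 the table gave 229 genes and the set 3. With the 3 runs of library numbers as a block the table gave 152 genes and the set FABP1 and ACAA1 again.

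Plasmax-TE+Fe against Plasmax asks how the iron-supplied medium differs from the complete one. None of the 8 genes passed in edgeR's test, beside 1.2% of all tested genes (0.507% higher and 0.698% lower). By unadjusted p under 0.05 there was 1 (HADH, unadjusted p = 0.036), and DESeq2 and limma-voom called 0 of the 8. ACAA2 averaged 51.8 ± 5.00 CPM in Plasmax-TE+Fe and 51.6 ± 6.57 CPM in Plasmax (log2 fold change 0.00, 95% interval -0.35 to 0.36). ACAA1 averaged 66.1 ± 7.91 CPM in Plasmax-TE+Fe and 67.7 ± 9.20 CPM in Plasmax (-0.04, 95% interval -0.38 to 0.30). HADH had 25.1 ± 7.08 CPM in Plasmax-TE+Fe and 17.6 ± 1.11 CPM in Plasmax (0.52, 95% interval 0.04 to 1.00), and FABP1 184 ± 27.2 CPM in Plasmax-TE+Fe and 231 ± 25.6 CPM in Plasmax (-0.32, 95% interval -0.65 to 0.02). HADH was the only 1 of the 8 whose libraries did not overlap, beside 18.4% of all tested genes (8.67% higher and 9.7% lower). A missed threshold does not show that levels were the same.

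Set against EMEM, the same 7 genes fell in Plasmax-TE+Fe as in complete Plasmax, while Plasmax-TE gave another pattern. In Plasmax-TE+Fe 7 of 8 genes fell (9.65% of all tested genes differed, 3.67% higher and 5.98% lower, so that 38.1% of calls were higher, against 49.5% of calls with library size alone), with FABP1 at -2.34 ± 0.16, or 5.07-fold lower, ACAA2 at -1.10 ± 0.16 and PLIN2 at -0.87 ± 0.18. CPT1A had 0.46 ± 0.17 there (adjusted p = 0.093). All 8 were without overlap in that comparison, 1 higher and 7 lower, beside 28.8% of all tested genes (16.1% higher and 12.8% lower). In Plasmax-TE 4 genes fell and 1 rose (4.81% of all tested genes differed, 1.62% higher and 3.19% lower). FABP1 (-1.40 ± 0.16, adjusted p = 1.4e-05), PLIN2 (-1.38 ± 0.19, adjusted p = 0.00014), PPARA (-0.69 ± 0.19, adjusted p = 0.043) and ACAA2 (-0.57 ± 0.16, adjusted p = 0.043) fell, and CPT1A rose (0.73 ± 0.17, adjusted p = 0.015). HADH (-0.22 ± 0.20), ACADS (-0.41 ± 0.20) and ACAA1 (0.01 ± 0.15) did not pass in Plasmax-TE against EMEM. CPT1A (higher) and FABP1, PLIN2 and ACAA2 (lower) were without overlap, beside 25.3% of all tested genes (14.6% higher and 10.7% lower). The count of 5 fell to 2 without EMEM replicate 3, Plasmax-TE replicate 2 or Plasmax-TE replicate 3, and to 3 without EMEM replicate 2, Plasmax replicate 1, Plasmax replicate 2 or Plasmax-TE+Fe replicate 3. FABP1 and PLIN2 passed in Plasmax-TE against EMEM under all alternatives. With the 2 libraries set apart left out, the counts were 4 of 8 for Plasmax-TE and 8 of 8 for Plasmax-TE+Fe, where CPT1A rose by 0.50.

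Ratios of 2 genes within a library do not depend on scaling between libraries. Their size is not a comparison of transcript levels between genes, and they were chosen after the values were seen, so no test is given. PLIN2 per FABP1 count was 2.48 ± 0.56 in Plasmax-TE+Fe (1.91 to 3.02) and 0.919 ± 0.076 in Plasmax-TE (0.852 to 1.00). It was 2.39 ± 0.46 in Plasmax (2.01 to 2.90) and 0.908 ± 0.081 in EMEM (0.855 to 1.00). The 12 libraries fell into 2 ranges without overlap, Plasmax-TE+Fe with Plasmax and Plasmax-TE with EMEM, and the library of Plasmax-TE+Fe with low PLIN2 stayed in the upper range. Plasmax-TE shared the range of EMEM although both genes were lower there than in EMEM, by similar log2 fold changes (FABP1 -1.40, PLIN2 -1.38).

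CPT1A per ACAA2 count was 3.75 ± 0.39 in Plasmax-TE+Fe, 3.10 ± 0.17 in Plasmax-TE, 3.92 ± 0.29 in Plasmax and 1.27 ± 0.29 in EMEM, with no EMEM library above 1.47 and no other below 3. Peroxisomal ACAA1 per mitochondrial ACAA2 count was 1.28 ± 0.16 in Plasmax-TE+Fe, 1.61 ± 0.21 in Plasmax-TE, 1.31 ± 0.12 in Plasmax and 1.06 ± 0.03 in EMEM, all SD with n = 3. EMEM lay below the other media in every library for this ratio. HADH per ACAA2 count was 0.478 ± 0.086 in Plasmax-TE+Fe, 0.536 ± 0.017 in Plasmax-TE, 0.343 ± 0.022 in Plasmax and 0.417 ± 0.022 in EMEM, so Plasmax was lowest for it.

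**Figure D3:**
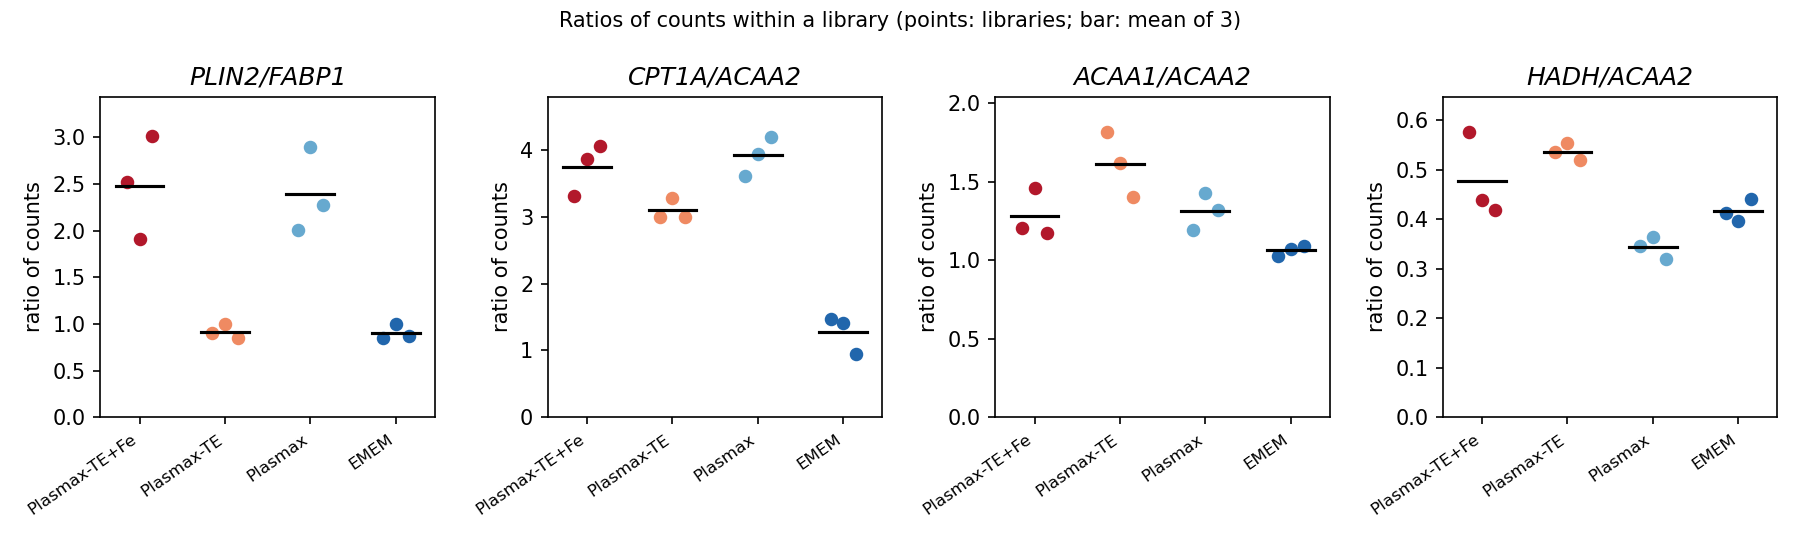
Ratios of counts of 2 genes within each library (linear axes from 0), by medium; points are libraries and bars are means of 3. PLIN2/FABP1 lies between 1.91 and 3.02 in Plasmax-TE+Fe and Plasmax and between 0.852 and 1.00 in Plasmax-TE and EMEM.

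The rest of the pathway was read from 8 lists with 79 other tested genes. In Plasmax against EMEM 24 of these fell and 6 rose, with a median log2 fold change of -0.28, beside 11.5% lower and 9.9% higher among all tested genes. In Plasmax-TE against Plasmax 15 rose and 5 fell, with a median of 0.22 (7 rose and 3 fell without Plasmax replicate 2), beside 5.61% higher and 5.63% lower among all tested genes. The counts of the single lists, of 2 to 17 genes each, are to be read against these same shares, and counts of 1 or 2 genes are given as a description only. Peroxisomal beta-oxidation had 6 of 12 members lower in Plasmax than in EMEM and 4 of 12 higher in Plasmax-TE than in Plasmax, with 0 in the other direction in both. PECR, a peroxisomal enoyl-CoA reductase, had -1.54 ± 0.22 and 1.09 ± 0.22 in these 2 comparisons. It is counted in this list, although a reductase is not among the steps of beta-oxidation named above. ACOX2, an oxidase of branched chains and bile acid precursors, had -1.46 ± 0.28 and 1.29 ± 0.28, and HSD17B4, the multifunctional enzyme of the middle steps, -0.94 ± 0.21 and 0.69 ± 0.21.

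Of mitochondrial beta-oxidation outside the set, 2 of 15 fell and 1 rose in Plasmax against EMEM, near the 21.4% of all tested genes that differed. In Plasmax-TE against Plasmax 4 of 15 rose and 1 fell, beside 5.61% higher and 5.63% lower among all tested genes. The largest change was that of ACADSB, which acts on short branched chains in isoleucine breakdown. ACADSB averaged 160 ± 7.80 CPM in Plasmax-TE+Fe, 245 ± 25.2 CPM in Plasmax-TE, 91.1 ± 5.50 CPM in Plasmax and 300.5 ± 25.7 CPM in EMEM. It rose in Plasmax-TE+Fe against Plasmax by 0.81 ± 0.14 (adjusted p = 0.004), the only 1 of the 79 to pass there, and did not pass without Plasmax replicate 2. The isomerase ECI2 fell in Plasmax against EMEM (-0.49 ± 0.15) and rose in Plasmax-TE against Plasmax (0.54 ± 0.15), while ETFB, a subunit of the electron transfer flavoprotein, fell in Plasmax-TE against Plasmax (-0.77 ± 0.20).

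Of the carnitine shuttle and its regulation, 2 of 8 fell in Plasmax against EMEM. These were CRAT, carnitine acetyltransferase (-1.31 ± 0.20), and MLYCD, which removes the CPT1 inhibitor malonyl-CoA (-0.80 ± 0.23). In Plasmax-TE against Plasmax CRAT (0.70 ± 0.21) and CPT2, the carnitine palmitoyltransferase of the inner membrane (0.89 ± 0.27), rose and the AMPK subunit PRKAA2 fell (-0.68 ± 0.16). Of 8 genes of fatty acid uptake, activation and binding 2 rose and 2 fell in Plasmax against EMEM. ACSL5 (1.32 ± 0.17) and ACSL1 (0.94 ± 0.21), acyl-CoA synthetases, rose, and DBI, the acyl-CoA binding protein (-0.75 ± 0.14), and ACSL4 (-0.56 ± 0.19) fell. In Plasmax-TE against Plasmax ACSL5 (-0.96 ± 0.17) and ACSL1 (-1.01 ± 0.21) fell, and 0 of the 8 members of that list rose.

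Lipid droplet genes besides PLIN2 gave 5 lower and 2 higher of 17 in Plasmax against EMEM, with falls of CIDEB, a protein of droplets and lipoprotein assembly (-1.17 ± 0.19), HSD17B11, a droplet-bound dehydrogenase (-1.08 ± 0.17), and GPAM, which starts triglyceride synthesis (-1.07 ± 0.19). G0S2, an inhibitor of the triglyceride lipase PNPLA2, had 16 to 41 counts in the Plasmax libraries and 0 counts in all 3 EMEM libraries. Its mean of 13.4 CPM in Plasmax is at least 27.6-fold higher than the 0.485 CPM that 3 counts over the EMEM libraries would give. It fell in Plasmax-TE against Plasmax (1.82 ± 2.42 CPM against 13.4 ± 7.30 CPM). Genes of low counts were already absent from the deposited counts, and every gene kept reached 4.04 CPM in 3 or more libraries. With 0 counts in EMEM, G0S2 could be kept only through the other media, and its counts were highest in Plasmax. The sizes of this rise and this fall are therefore conditioned on that selection. GPAM (0.92 ± 0.19) and the droplet protein PLIN5 (1.96 ± 0.48) rose in Plasmax-TE against Plasmax, PLIN5 at low levels of 9.80 ± 1.90 CPM in Plasmax-TE and 2.50 ± 0.67 CPM in Plasmax. Below 4.04 CPM in Plasmax and Plasmax-TE+Fe (mean 2.58 CPM), PLIN5 could be kept only through Plasmax-TE and EMEM. AGPAT2, higher in Plasmax than in EMEM (2.48 ± 0.65), averaged 0.735 CPM in EMEM and could be kept only through the Plasmax media. The sizes of the PLIN5 and AGPAT2 rises are conditioned on that selection too.

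Of the partners and co-regulators of PPARA, RXRA (-0.67 ± 0.15), the liver factor CREB3L3 (-1.45 ± 0.29) and PPARG (-1.77 ± 0.41) fell in Plasmax against EMEM, and 10 of 14 did not pass. In Plasmax-TE against Plasmax 0 of the 14 passed. Among other PPARA targets, some of which are also in the lists above, 5 of 6 fell in Plasmax against EMEM (median -0.90) and 5 of 6 rose in Plasmax-TE against Plasmax (median 0.88). ACOT2, a mitochondrial acyl-CoA thioesterase, had -1.47 ± 0.20 and 1.04 ± 0.20, with the limit that its near-identical neighbour ACOT1 had no entry and could share reads. ANGPTL4, a secreted inhibitor of lipoprotein lipase, had -2.21 ± 0.46 and 1.72 ± 0.48 at levels below 16 CPM. Its mean of 2.71 CPM in Plasmax was below the 4.04 CPM that kept genes reached. ANGPTL4 could thus be kept only through the other media, and its sizes of change are conditioned on that selection.

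With iron supplied (Plasmax-TE+Fe against Plasmax-TE), 0 of the 79 genes passed in edgeR's test, while 25 had an unadjusted p under 0.05, 21 of them lower, beside 9.31% of all tested genes in either direction. DESeq2 called 3 of the 79, all lower, limma-voom 0, and the block for the library-number runs 5, all lower. Without Plasmax-TE+Fe replicate 2 there were 7 and without Plasmax replicate 3 there were 2, all lower. The whole table also gave more calls with DESeq2, with that block and without Plasmax-TE+Fe replicate 2 than in the main fit. Of the table's calls 29.63% were higher with DESeq2 and 33.55% with the block. The share was 45.85% without Plasmax-TE+Fe replicate 2 and 27.66% without Plasmax replicate 3. The lowest p belonged to ACADSB (-0.62 ± 0.14, adjusted p = 0.059) and ACSM3, a medium-chain acyl-CoA synthetase (-0.66 ± 0.15, adjusted p = 0.062), which were singled out after their values were seen. List medians were -0.46 for peroxisomal beta-oxidation, -0.21 for mitochondrial beta-oxidation and -0.71 for other PPARA targets, beside 0.00 over all tested genes. The carnitine shuttle list had -0.23. Ketone body synthesis (-0.07), lipid droplet genes (-0.05) and PPARA partners (-0.04) were near 0. Fatty acid uptake, activation and binding went the other way (0.24, with 7 of 8 genes above 0). These medians rest on the same Plasmax-TE libraries as those of Plasmax-TE against Plasmax, so opposite signs in the 2 comparisons are not independent.

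**Figure D4:**
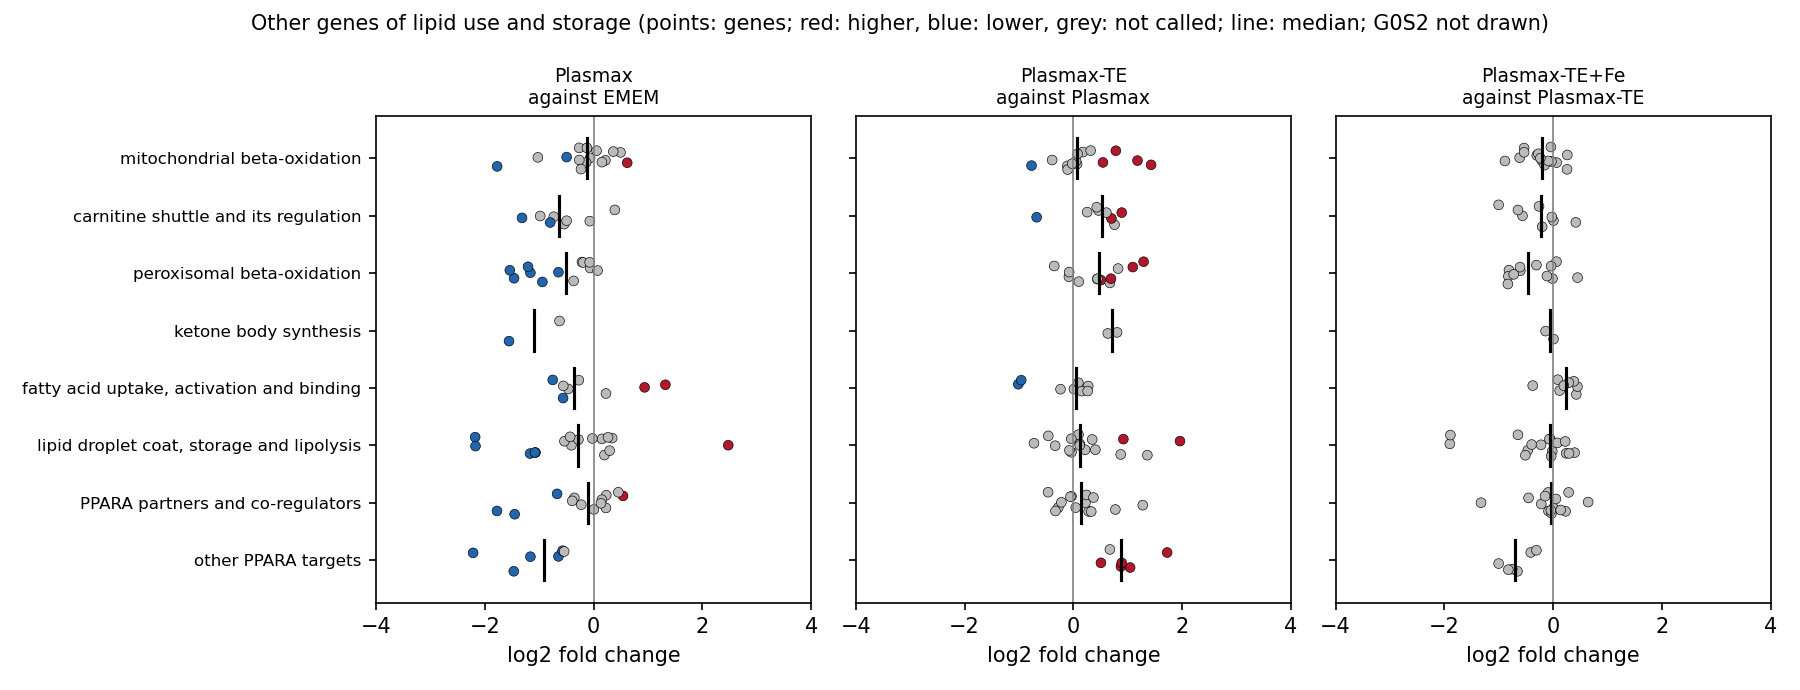
Log2 fold changes of the 79 other genes by list in 3 comparisons; each point is a gene (G0S2 is not drawn), red and blue passed the test (higher and lower) and grey did not, and the black line is the list's median. For other PPARA targets the median is -0.90 for Plasmax against EMEM, 0.88 for Plasmax-TE against Plasmax and -0.71 for Plasmax-TE+Fe against Plasmax-TE. Neighbouring comparisons share the libraries of a medium, so their opposite signs are not independent.

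Likeness of profiles was measured as the root mean square difference between gene-centred log2 CPM over the 12 libraries, for which 0 means the same profile. Among the 8, ACAA1 and ACAA2 (0.24), ACAA2 and HADH (0.25) and ACAA1 and HADH (0.27) were closest, and FABP1 and CPT1A (1.13) farthest apart. Of all other tested genes the closest to FABP1 were MSMO1 (0.27), ACAT2 (0.27) and SLC13A3 (0.28), where the median gene was at 0.97. The closest to PLIN2 were ALDOA (0.20), PGK1 (0.22) and PDE4D (0.23), and the closest to CPT1A were SAAL1 (0.13), RPL36AP37 (0.15) and CENPX (0.17). HADH was closest to APOH (0.15), HSDL2 (0.18) and MPC1 (0.19), and ACAA2 to ELOVL2, A2M and FADS1 (0.13 each). ACAA1 was closest to ZNF16, RHBG and LIPC (0.16 each), ACADS to SERPIND1 (0.13), CES2 (0.14) and APOA1 (0.15), and PPARA to TBC1D4 (0.15), DOK4 (0.16) and SLC22A23 (0.18). All 12 libraries enter both profiles of a pair, so depth and the 2 libraries set apart are common to them.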

How the data were processed

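HepG2 RNA was made into QuantSeq 3′ libraries and the authors deposited raw counts per gene, per the labels. Genes of low counts were already absent (in each gene, 3 or more libraries reached 4.04 CPM). Named in the submitters' processing notes are STAR 2.7.5b, featureCounts 1.6.3, cutadapt 1.16, FastQC 0.72, limma 3.40.6 and build hg19. Annotation and strand setting were not given in the sources used here. Of 10994 entries, 54 repeated identifiers with identical counts were dropped. In GENCODE 29 no other gene shares exons with the 3′ end of any of the 8 genes.

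With R 4.3.3 and edgeR 4.0.16, filterByExpr (minimum count 10, minimum total 15) left 10459 genes and TMM factors ran from 0.964 to 1.06. One quasi-likelihood model held all 12 libraries, with 8 residual degrees of freedom. Tests were two-sided, and a gene was called at a Benjamini-Hochberg adjusted p under 0.05 over all tested genes. An exact permutation test of 3 against 3 cannot go below p = 0.1. SE is the absolute log2 fold change over the root of F. CPM uses plain library totals, and profiles and principal components a prior count of 2. The code was tested on simulated data.

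The 8 genes, the lists and the alternatives were chosen with earlier results of these data known. Besides the 8, the rule named the called members of each list with the lowest p (up to 4 per list and comparison) and the 3 closest profiles of each gene. Some genes so named are not reported here. The alternatives were DESeq2 1.42.0, limma-voom (limma 3.58.1), RLE factors, library size alone, 3 other filters, a replicate block, the runs of library numbers as a block, each library left out, both libraries set apart left out, and the 6 libraries compared alone.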

Additional observations from a re-analysis of the deposited data

How the results depend on the processing

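Of 1104 refits of a gene of the set in a comparison, 1035 kept the side of the threshold, 64 lost the call and 5 gained it. In 0 refits did a gene called in either fit reverse direction. Genes called in neither fit could change sign: ACAA1 ran from -0.13 to 0.11 in Plasmax-TE+Fe against Plasmax. All genes called in Plasmax-TE+Fe against Plasmax-TE numbered 81 with DESeq2, 152 with the 3 runs of library numbers as a block, 99 without both libraries set apart and 0 with only the 6 libraries compared, against 27 as reported. The 6 libraries alone also gave 0 of the 8 there, and 77 genes (126 as reported) in Plasmax-TE+Fe against Plasmax. With the runs as a block there were 2835 genes (1879 as reported) over the 4 media and 1859 (1176) in Plasmax-TE against Plasmax. The same block gave 372 (126) in Plasmax-TE+Fe against Plasmax, 829 (503) in Plasmax-TE against EMEM and 1569 (1009) in Plasmax-TE+Fe against EMEM. The cause was not tested.

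With 1 library left out, Plasmax-TE against Plasmax gave 2 to 6 of the 8 and 477 to 1577 genes, and Plasmax-TE+Fe against Plasmax-TE 0 to 3 and 0 to 229. Plasmax-TE+Fe against Plasmax gave 0 of the 8 each time and 31 to 170 genes. Plasmax-TE against EMEM gave 2 to 5 and 259 to 678, and Plasmax-TE+Fe against EMEM 6 to 8 and 606 to 1224. Same-numbered replicates deviated together (correlation over 0.1) in 4 of 18 pairs, and libraries of the same run of numbers in 9 of 18. In Plasmax-TE+Fe with Plasmax-TE the correlation was over 0.1 in each of the 3 runs (0.534, 0.217 and 0.377), as it was for either medium with EMEM. The labels do not say what a run stands for, and as a block it changed no call of the 8 genes. The replicate block changed the number of the 8 called in 1 of the 6 comparisons, Plasmax-TE against EMEM (4, against 5 as reported), where PPARA had an adjusted p of 0.06. It moved no count of genes by over 1.5 times. The lowest count, 27 reads, limits HADH in Plasmax.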
